A study of Mus musculus with 6 samples.

Results

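The Cyp3a subfamily of cytochrome P450 genes was examined in mouse liver after an overdose of acetaminophen (APAP). Its members were taken as the rows of the deposited gene table whose gene name was Cyp3a11, Cyp3a13, Cyp3a16, Cyp3a25, Cyp3a41a, Cyp3a41b, Cyp3a44, Cyp3a57 or Cyp3a59, which gave 9 of 34745 genes. All 9 names were found once. Rows were matched by name alone, but the list was drawn up with earlier results of these data known. The livers came from WT mice of the C57BL/6J strain, which the Methods give as male and 8 to 10 weeks old, that had been fasted and then injected with saline or with APAP at 300 mg/kg and examined at 12 hours. No gene was deleted or introduced in either group. The samples comprise 3 livers per group, of which 2 APAP libraries (replicates 1 and 3) and 3 saline libraries (WT1, WT2 and WT3) were analysed. APAP replicate 2 was not analysed here, and the WT columns were taken for the saline livers, since the remaining count columns carry the name of the drug. The labels do not say that each library came from a separate mouse, so p-values measure the spread between these libraries.

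CYP3A enzymes sit in the endoplasmic reticulum of hepatocytes and oxidize drugs, steroids and bile acids, with electrons passed on by P450 oxidoreductase and cytochrome b5. Their genes are classic targets of the pregnane X receptor (PXR, encoded by Nr1i2), which binds DNA together with the retinoid X receptor, and of the related receptor CAR (Nr1i3). HNF4A, C/EBP and FOXA factors set their basal transcription in hepatocytes. CYP3A enzymes are among those that turn APAP into its reactive quinone imine, and the injury that follows is centred on the hepatocytes around the central vein, where Cyp3a11 is also most abundant. Several mouse members differ between the sexes: Cyp3a16, Cyp3a41a, Cyp3a41b and Cyp3a44 are known as female-predominant in the adult liver, under the control of growth hormone through STAT5B, CUX2 and BCL6. The comparison of APAP with saline asked which liver mRNA levels, PXR targets among them, changed after the overdose.

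The 9 genes lie on chromosome 5 (coordinates of GRCm38, as in the deposited table). Of these, 8 form a cluster of 768 kb between 145345279 and 146113287, in the order Cyp3a57, Cyp3a16, Cyp3a41b, Cyp3a41a, Cyp3a44, Cyp3a11, Cyp3a25 and Cyp3a59, and Cyp3a57 and Cyp3a59 are on the plus strand while the others are on the minus strand. Cyp3a13 (137892932 to 137921619, minus strand) lies 7.42 Mb away from the cluster. By sequence the cluster falls into 2 sets. Cyp3a11, Cyp3a16, Cyp3a41a, Cyp3a41b and Cyp3a44 share between 92.4% and 99.9% of their coding bases with each other, Cyp3a25, Cyp3a57 and Cyp3a59 share between 93.9% and 97.5%, and pairs across the sets share between 74.5% and 76.1%. Cyp3a13 shares between 75.2% and 76.8% with the other 8 genes.

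The promoters fall into the same sets. Over 300 bases, from 250 before to 50 after each RefSeq start, identity was between 69.8% and 97.0% within the first set, between 89.7% and 95.7% within the second and between 49.3% and 54.5% across them. Given next are the bases from −200 to −86 (GRCm38.p6, RefSeq) of 7 genes, because the sets differ there in short words known to be bound by hepatocyte factors. Capitals mark TGTTTAC, a FOXA word, and CAAAGTCCA or CAAAGGTCA, both HNF4A words, and the strand of each gene is read 5′ to 3′. The stretch of Cyp3a41b (chr5:145584816-145584930, minus strand) has the same letters as that of Cyp3a41a, and that of Cyp3a57, a gene with almost no counts, is not shown.
Cyp3a11 (chr5:145879940-145880054, minus strand): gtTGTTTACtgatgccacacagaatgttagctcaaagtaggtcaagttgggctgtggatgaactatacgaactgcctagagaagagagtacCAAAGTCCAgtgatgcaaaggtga
Cyp3a16 (chr5:145469809-145469923, minus strand): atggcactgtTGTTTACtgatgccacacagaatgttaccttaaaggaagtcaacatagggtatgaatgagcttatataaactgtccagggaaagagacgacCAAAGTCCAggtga
Cyp3a41a (chr5:145720222-145720336, minus strand): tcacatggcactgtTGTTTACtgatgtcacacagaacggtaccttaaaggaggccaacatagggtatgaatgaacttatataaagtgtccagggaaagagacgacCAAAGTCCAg
Cyp3a44 (chr5:145805960-145806074, minus strand): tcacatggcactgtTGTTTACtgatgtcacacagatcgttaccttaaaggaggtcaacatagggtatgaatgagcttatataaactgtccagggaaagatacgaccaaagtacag
Cyp3a25 (chr5:146009704-146009818, minus strand): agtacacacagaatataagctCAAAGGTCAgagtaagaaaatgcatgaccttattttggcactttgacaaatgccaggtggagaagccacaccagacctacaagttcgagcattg
Cyp3a59 (chr5:146079058-146079172, plus strand): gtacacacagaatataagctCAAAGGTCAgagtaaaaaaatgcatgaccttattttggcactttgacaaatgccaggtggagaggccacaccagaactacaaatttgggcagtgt
Cyp3a13 (chr5:137921705-137921819, minus strand): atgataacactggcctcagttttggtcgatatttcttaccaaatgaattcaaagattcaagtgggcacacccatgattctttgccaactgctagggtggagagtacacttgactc
The FOXA word TGTTTAC occurred in the promoters of all 5 genes of the first set (between −198 and −186) and in 3.65% of 32851 mouse promoters of the same length, searched on both strands. The HNF4A word CAAAGTCCA occurred in Cyp3a11 (−109), Cyp3a16 (−99), Cyp3a41a and Cyp3a41b (both −95) and in 0.475% of all promoters. Cyp3a44 has at the matching place caaagtaca, which differs from that word by C7A, counted from 1 at its first base. The other HNF4A word, CAAAGGTCA, which contains the nuclear receptor word AGGTCA, occurred in Cyp3a25 (−179), Cyp3a57 (−177) and Cyp3a59 (−180) and in 0.478% of all promoters. AGGTCA itself was found in 5 of the 9 members (Cyp3a11, Cyp3a25, Cyp3a44, Cyp3a57 and Cyp3a59) and in 16.3% of all promoters, and AGTTCA, a word known from PXR elements, in 3 (Cyp3a11, Cyp3a41a and Cyp3a41b) and in 14.0%. Exact repeats of AGTTCA, everted with a spacer of 6 bases or direct with a spacer of 3, occurred in none of the 9 windows. They occurred in 2 and 0 of all promoters, so their absence from the 9 windows says little. Repeats that mix AGTTCA with AGGTCA were not searched. The STAT5 word TTCNNNGAA occurred in none of the 9 and in 8.30% of all. The HNF6 word ATCAAT was present in Cyp3a16, Cyp3a41a, Cyp3a41b, Cyp3a44 and Cyp3a57 and in 7.54% of all promoters. These words were picked after the promoters had been read, and a match describes letters, not binding.

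The libraries held between 13378445 and 15976339 raw counts. Counts were scaled with TMM factors (edgeR) between 0.783 and 1.27 and are given as CPM, counts relative to the size of the scaled library, in which 3 counts, taken as the limit of detection for counting error alone, correspond to between 0.176 and 0.269 CPM. Sex-linked genes separated the groups in all 5 libraries. Xist, the RNA of the inactive X chromosome, was found at 0.764 and 1.73 CPM in the APAP libraries against 289.6, 914 and 882 CPM in the saline libraries, and each of the Y-linked genes Ddx3y, Eif2s3y, Kdm5d and Uty had between 216 and 1344 counts in the APAP libraries and at most 1 count in any saline library. By these genes the saline libraries had the pattern of female liver and the APAP libraries that of male liver, whereas the Methods name male mice. Treatment and sex therefore cannot be told apart in the values that follow.

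Most Cyp3a mRNA levels were lower with APAP. Of the 9 members, 8 passed the filter on low counts, and 7 of these had an adjusted p under 0.05 in edgeR's quasi-likelihood test and were lower, namely Cyp3a11, Cyp3a25, Cyp3a59, Cyp3a44, Cyp3a41a, Cyp3a41b and Cyp3a16. Over all 13734 genes tested, 7.23% were called by that rule, 3.53% lower and 3.7% higher. No member was called higher, and none was higher at an unadjusted p under 0.05. Cyp3a16, Cyp3a41a and Cyp3a41b had at most 4 counts in any APAP library and passed the filter through the saline libraries alone, so they had to differ in this direction. When every library had to reach 10 counts, 5 members were tested and 4 of them (Cyp3a11, Cyp3a25, Cyp3a44 and Cyp3a59) were called lower. The median log2 fold change of these 5 members was −2.46, and that over all 13734 tested genes was 0.03. By the thresholds of the study (fold change of at least 1.5 and unadjusted P under 0.05) the 8 tested members were lower, the 3 that had to differ among them, where 11.2% of all tested genes were. Cyp3a13 missed these thresholds with the likelihood ratio and exact tests, with which 7 members were lower. APAP and saline libraries did not overlap for the same 8 members, where 20.1% of all tested genes were lower without overlap. In bulk RNA, fewer hepatocytes and less Cyp3a RNA per hepatocyte cannot be told apart.

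**Figure D1:**
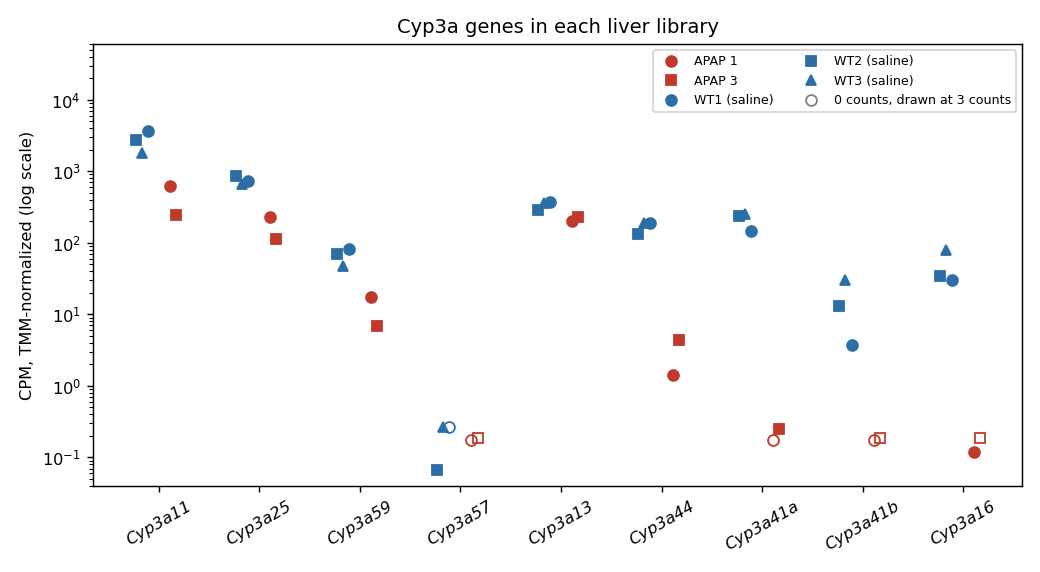
Cyp3a mRNA in each liver library, in CPM on a log scale, with 1 symbol per library (APAP replicates 1 and 3 in red, saline libraries WT1 to WT3 in blue). Open symbols stand for 0 counts and are drawn at the level of 3 counts. Cyp3a11, Cyp3a25 and Cyp3a59 keep measurable levels with APAP, Cyp3a13 changes least, and Cyp3a41a, Cyp3a41b and Cyp3a16 are at or near 0.

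Cyp3a11 (ENSMUSG00000056035, 145854426 to 145879964) is the main inducible CYP3A of mouse liver and the usual counterpart of human CYP3A4. It had 10452 and 3910 counts in APAP replicates 1 and 3 and 40513, 40605 and 26493 counts in WT1, WT2 and WT3, or 614 and 242 CPM against 3631, 2697 and 1770 CPM. The lowest saline library was above the highest APAP library, and within each group the libraries spanned more than for Cyp3a25, 2.54-fold with APAP and 2.05-fold with saline. The mean was 428 ± 263 CPM (SD, n = 2) with APAP and 2699 ± 931 CPM (SD, n = 3) with saline, so 15.9% of the saline level was left. edgeR's quasi-likelihood test gave a log2 fold change of −2.66 with a standard error of 0.55 and an adjusted p of 0.0374. The direction held in every one of 13 alternatives, between −3.48 and −2.15, but the call was lost in edgeR without APAP replicate 1 (adjusted p = 0.0647), APAP replicate 3 (0.113), WT1 (0.0789) or WT2 (0.121).

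Cyp3a25 (ENSMUSG00000029630, 145977194 to 146009618), a second constitutively expressed liver member, had 3947 and 1851 counts with APAP and 8196, 12815 and 9935 counts with saline. In CPM these are 232 and 114 against 735, 851 and 664. The saline libraries lay close together (1.28-fold from lowest to highest), and the APAP libraries lay apart from them and from each other (2.03-fold). The saline mean was 749.9 ± 94.7 CPM (SD, n = 3), and the APAP mean of 173 ± 83.1 CPM (SD, n = 2) was 23.1% of it. In edgeR this was a fitted log2 change of −2.11 with a standard error of 0.38 and an adjusted p of 0.0252. The adjusted p rose to 0.0785 without APAP replicate 3, 0.0606 without WT1 and 0.0977 without WT2.

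Cyp3a59 (ENSMUSG00000061292, 146079257 to 146113287) lies next to Cyp3a25 in the opposite orientation and is its closest relative, with 97.5% of coding bases in common. It had 293 and 110 counts with APAP and 903, 1064 and 712 with saline, that is 17.2 and 6.80 CPM against 80.9, 70.7 and 47.6 CPM. The groups did not overlap, and as for Cyp3a11 and Cyp3a25 APAP replicate 1 was the higher of the APAP libraries. It fell by 2.46 on the log2 scale (standard error 0.45, adjusted p = 0.0276, edgeR), to 18.1% of the saline mean. This change was between −3.28 and −1.96 with 1 library left out, and the call was lost without APAP replicate 3 (0.0694), WT1 (0.0696) or WT2 (0.0973). Cyp3a57 (ENSMUSG00000070419, 145345279 to 145390926), the remaining gene of this set, had 0 counts in both APAP libraries and 0, 1 and 4 counts in WT1, WT2 and WT3. It was not tested, and no difference was detectable at this depth.

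Cyp3a13 (ENSMUSG00000029727), which outside the liver is known as a major CYP3A of the mouse intestine, had the smallest fitted change of the 8 tested members. It had 3484 and 3750 counts with APAP and 4175, 4308 and 5325 counts with saline, or 205 and 232 CPM against 374, 286 and 356 CPM. The groups did not overlap, but the gap was narrow and the highest APAP library reached 232 CPM where the lowest saline library was at 286 CPM. The mean was 218 ± 19.2 CPM (SD, n = 2) against 339 ± 46.4 CPM (SD, n = 3), 64.4% of saline. The fitted log2 change was −0.63, with a standard error of 0.24. Its p in edgeR's quasi-likelihood test was 0.0364 before and 0.169 after adjustment, so Cyp3a13 was not called. DESeq2 gave it an adjusted p of 0.0436, and with scaling to library size only its log2 fold change was −0.24, in a fit where the median of all tested genes was 0.42.

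The 4 female-predominant members had at most 71 counts in either APAP library. Cyp3a44 (ENSMUSG00000054417, 145773983 to 145805874) had 24 and 71 counts with APAP and 2135, 1971 and 2800 counts with saline, which correspond to 1.41 and 4.39 CPM against 191, 131 and 187 CPM. All APAP counts were above the limit of detection, and here APAP replicate 3 was the higher library, the reverse of Cyp3a11. In edgeR Cyp3a44 fell by 5.87 on the log2 scale, with a standard error of 0.57 and an adjusted p of 0.00433. The adjusted p stayed under 0.05 in each of 13 alternatives, in which the log2 change ran from −6.91 to −5.27.
Cyp3a41a (ENSMUSG00000075551, 145694049 to 145720136) had 0 and 4 counts with APAP and 1651, 3523 and 3797 counts with saline, where its mean was 212 ± 56.2 CPM (SD, n = 3). Pooled over libraries and scaled, the saline level was 1808 times the APAP level, with a 95% exact interval from 706 to 6637 that covers counting error only. Its adjusted p was 0.00184 in edgeR. Cyp3a16 (ENSMUSG00000038656, 145436309 to 145469723), a form also known from fetal and newborn liver, had 2 and 0 counts with APAP and 341, 518 and 1203 counts with saline (30.6, 34.4 and 80.4 CPM). The pooled ratio was 831 (95% exact counting interval from 229.8 to 6868) and the adjusted p was 0.00398 (edgeR).
Cyp3a41b (ENSMUSG00000075552, 145558664 to 145584730) had no count in either APAP library and 42, 199 and 457 counts in WT1, WT2 and WT3. The saline libraries themselves spanned 8.11-fold, from 3.76 to 30.5 CPM, the widest saline range of the 8 tested members. Against the limit of 3 counts per APAP library, Cyp3a41b was at least 85.4-fold lower with APAP, and this bound was 45.8-fold without WT3 and 118-fold without WT1. The adjusted p was 0.0264 (edgeR), and the call was lost without APAP replicate 1 (0.118), APAP replicate 3 (0.0750) or WT2 (0.0890). Together the 4 female-predominant genes had 26 and 75 counts with APAP and 4169, 6211 and 8257 counts with saline. Of 19 other female-biased liver genes, 12 were called lower and none higher (15 and 0 at an unadjusted p under 0.05), though 6 of the 19 had fewer than 10 counts in each APAP library and entered the test through saline alone. Others, among them Cyp2c69 (2 and 35 counts with APAP), reached 10 counts in only 1 APAP library and also needed saline to pass the filter. Of 12 tested male-biased genes none was called in edgeR's quasi-likelihood test (6 were higher at an unadjusted p under 0.05 and also after adjustment by the likelihood ratio test, the exact test and DESeq2, median 1.67). Among these 6, Cyp4a12a, named after its values were seen, had 14 and 402 counts with APAP and 0, 7 and 2 with saline. It entered the test through APAP alone and could only be called higher. The APAP libraries differed here. Mup20 was at 97.9 CPM in APAP replicate 1 and 1045 CPM in APAP replicate 3 (53.8 to 90.6 CPM with saline), and Slco1a1 at 0 and 45.9 CPM (17.6 to 97.9 CPM). Gstp1 (350 and 705 against 181 to 237 CPM) and Cyp2d9 (73.0 and 271 against 29.1 to 60.7 CPM) were above every saline library in both. The part of sex in these changes was not tested and cannot be separated from that of APAP.

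**Figure D2:**
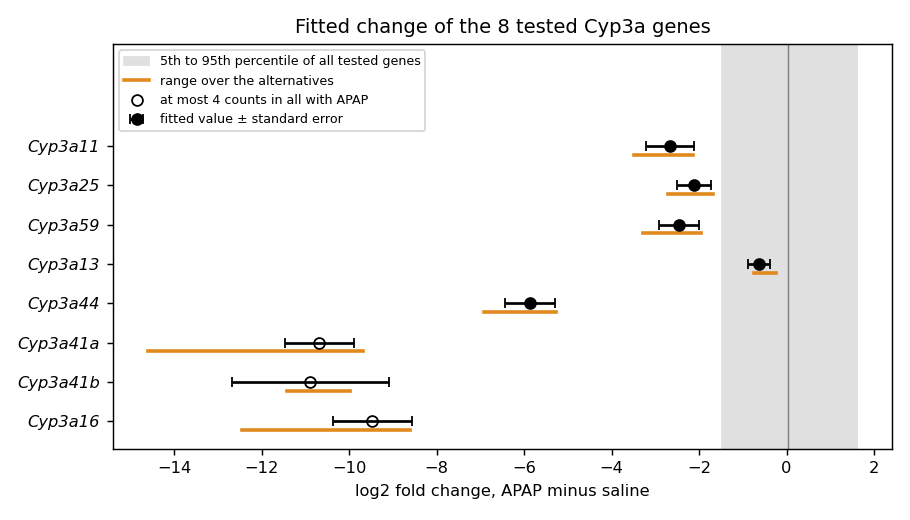
Fitted log2 fold change (APAP minus saline) of the 8 tested Cyp3a genes. Points are fitted values with the standard error, orange lines the range over the alternatives that tested the gene, and the grey band runs from −1.47 to 1.61, the 5th to 95th percentile of all tested genes. Open points are genes with at most 4 counts in all with APAP, whose fitted size depends on the prior count. Cyp3a13 is the one tested member inside the band.

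Some reads of these genes can be assigned to more than one member, so values were also read as sums. The share of a gene's 50-base words that occur in transcripts of another gene was 98.6% for Cyp3a41a and 93.5% for Cyp3a41b, nearly all of them in each other, 28.0% for Cyp3a59 and 26.8% for Cyp3a25, again mostly in each other, 26.5% for Cyp3a44, 14.8% for Cyp3a11, 10.7% for Cyp3a16, 8.88% for Cyp3a57 and 0 for Cyp3a13. Counts of Cyp3a41a and Cyp3a41b taken singly are uncertain: their ratio was 39.3, 17.7 and 8.31 in WT1, WT2 and WT3. Their sum does not depend on how reads were divided within this pair, and it was 0 and 4 counts with APAP and 1693, 3722 and 4254 counts with saline (152, 247 and 284 CPM). It can still depend on reads shared with other members, as Cyp3a41a shares 10.9% of its words with Cyp3a44 and 7.21% with Cyp3a11. Whether reads that map to several genes were kept is not known here. On the log2 scale with a pseudocount of 2 counts the groups differed by −9.93 (two-sided exact permutation p = 0.1, the smallest that 10 arrangements of 2 and 3 libraries can give). Cyp3a11 shares 6.32% of its words with Cyp3a41a and 5.80% with Cyp3a44 but none with Cyp3a13, Cyp3a25, Cyp3a57 or Cyp3a59.

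**Figure D3:**
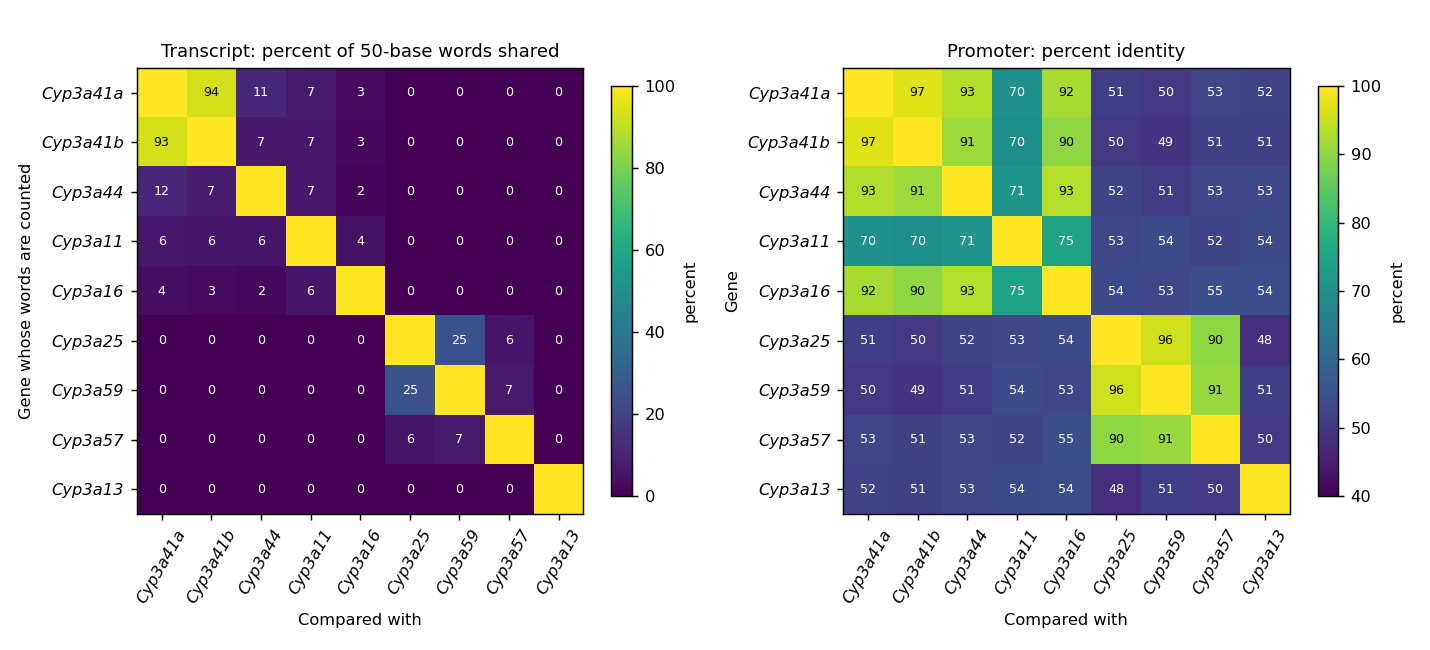
Sequence shared between the 9 Cyp3a genes. The left panel gives, for the gene of each row, the percent of its 50-base transcript words found in the gene of each column, and the right panel the percent identity of the 300-base promoters. Cyp3a41a and Cyp3a41b share over 90% in both panels, Cyp3a25 and Cyp3a59 share about 25% of words, and Cyp3a13 shares no word with any other member.

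Summed over all 9 members, 18202 and 9696 counts were obtained with APAP and 57956, 65004 and 50726 with saline, equal to 0.136% and 0.0653% of all counts against 0.406%, 0.423% and 0.318%. In CPM the sum was 1069 and 599 against 5195, 4318 and 3389, a mean of 834 ± 332 (SD, n = 2) against 4301 ± 903 (SD, n = 3). The APAP libraries thus held 19.4% of the saline level, 5.15-fold less, without overlap between groups (log2 difference −2.40, two-sided exact permutation p = 0.1, again the smallest possible). Without Cyp3a13 the 8 genes of the cluster were 6.43-fold lower, at 865 and 368 CPM against 4820, 4032 and 3033 CPM. The sum of Cyp3a25, Cyp3a57 and Cyp3a59 was 4.41-fold lower, and that of Cyp3a16, Cyp3a41a, Cyp3a41b and Cyp3a44 144.7-fold lower. Without APAP replicate 1 these 3 folds were 10.8, 6.74 and 96.2, and without APAP replicate 3 they were 4.58, 3.28 and 292.

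The make-up of the Cyp3a RNA was read within each library. Cyp3a13 made up 19.1% and 38.7% of the Cyp3a counts with APAP and 7.20%, 6.63% and 10.5% with saline, a difference of 20.8 percentage points (28.9% ± 13.8, SD, n = 2, against 8.11% ± 2.09, SD, n = 3, two-sided exact permutation p = 0.1, the smallest possible). Without APAP replicate 3 that difference was 11.03 points. Cyp3a11 made up 57.4% and 40.3% with APAP and 69.9%, 62.5% and 52.2% with saline, and these ranges overlapped (difference −12.7 points, two-sided exact permutation p = 0.3). That difference was −4.11 points without APAP replicate 3 and −21.2 points without APAP replicate 1. The 4 female-predominant members made up 0.143% and 0.774% against 7.19%, 9.55% and 16.3%. Cyp3a25 held 21.7% and 19.1% against 14.1%, 19.7% and 19.6%, and Cyp3a59 1.61% and 1.13% against 1.56%, 1.64% and 1.40%, both with overlapping groups. These shares do not depend on the scaling of the libraries.

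**Figure D4:**
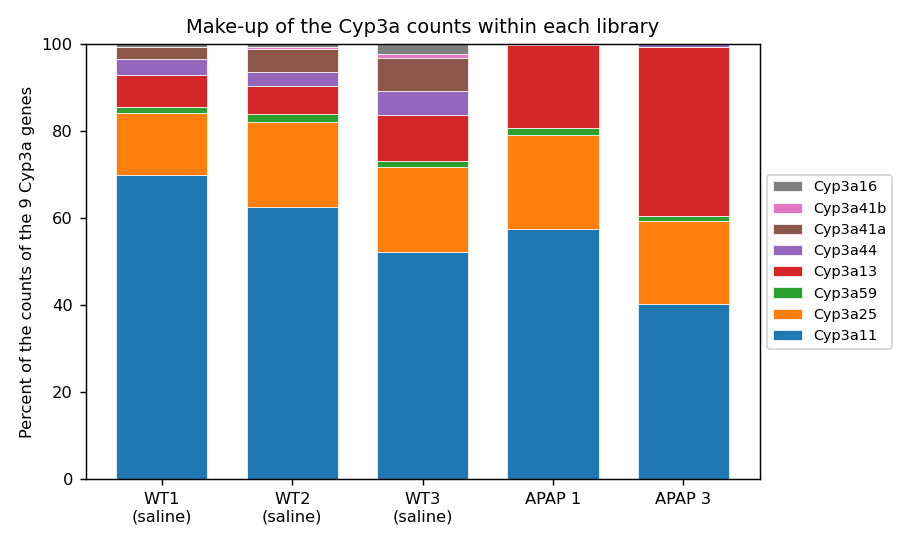
Percent of the counts of the 9 Cyp3a genes that fell to each gene, within each library. Cyp3a13 takes 19.1% and 38.7% of the APAP bars and at most 10.5% of the saline bars, and the 4 female-predominant genes are thin bands at the top of the saline bars.

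Levels of different members were compared per kilobase of the longest protein-coding transcript. In saline livers the order of mean CPM per kilobase was Cyp3a11 (1152 ± 397, SD, n = 3), Cyp3a25 (375 ± 47.4), Cyp3a13 (114.6 ± 15.7), Cyp3a41a (103 ± 27.3), Cyp3a44 (86.5 ± 17.2), Cyp3a59 (33.4 ± 8.59), Cyp3a16 (28.0 ± 16.0), Cyp3a41b (7.67 ± 6.58) and Cyp3a57 (0.0560 ± 0.0701). The libraries of Cyp3a13, Cyp3a41a and Cyp3a44 overlapped, as did those of Cyp3a59 and Cyp3a16, and those orders are not set apart by the spread. With APAP, Cyp3a11 was at 262 and 103 CPM per kilobase, Cyp3a25 at 116 and 57.2, Cyp3a13 at 69.3 and 78.4, Cyp3a59 at 8.65 and 3.42 and Cyp3a44 at 0.719 and 2.24. Cyp3a11 overlapped Cyp3a25, and Cyp3a25 overlapped Cyp3a13, so neighbours in this order that did not overlap in saline livers did so with APAP.

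Patterns over the 5 libraries were compared as the root mean square difference of log2 CPM after centring each gene on its own mean, a description over 5 points that share library and depth. The closest pair of members was Cyp3a11 and Cyp3a59 (0.129), from different sequence sets and with no shared word, followed by Cyp3a25 and Cyp3a59 (0.286) and Cyp3a11 and Cyp3a25 (0.411). Cyp3a11 and Cyp3a41a, with 95.2% of coding bases in common, were 3.63 apart. Outside the subfamily the closest genes were Cyp2b9 (0.215), Ugt1a5 (0.253) and Slc47a1 (0.280) for Cyp3a11, Cyp2b9 (0.166), Slc47a1 (0.187) and Nt5e (0.256) for Cyp3a59, and Slc47a1 (0.202), Lgalsl (0.204) and Pygl (0.213) for Cyp3a25. For Cyp3a44 they were Upp2 (0.266), Nxpe2 (0.286) and Slc13a3 (0.593), for Cyp3a41a the sulfotransferase genes Sult2a1 (0.494) and Sult2a2 (0.561) and then Xist (0.588), for Cyp3a16 Slc1a2 (0.689), Sult2a2 (0.745) and Sult3a1 (0.864), and for Cyp3a41b Cyp7a1 (0.769), Upp2 (1.01) and Slc1a2 (1.07). Cyp3a13 was closest to Rnf11 (0.0460), Mrpl34 (0.0463) and Tmem70 (0.0483).

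The genes of the receptors that act on Cyp3a were not called in edgeR. Of 15 regulators, all tested, 3 were called lower and none higher (at an unadjusted p under 0.05, 6 and 0), and their median log2 fold change was −0.63. Among the 3 is Cux2, which entered the test through saline alone. Over all tested genes 3.53% were called lower and 3.7% higher. At an unadjusted p under 0.05 with a fold change of at least 1.5, 11.2% were lower and 12.3% higher. Nr1i2, which encodes PXR, had 63.4 and 64.3 CPM after APAP against 76.3, 92.4 and 107 CPM after saline. Its groups did not overlap, but with an adjusted p of 0.208 in edgeR the fitted log2 change of −0.52 (standard error 0.23) was not called, and its adjusted p was between 0.104 and 0.320 in the other tests. Nr1i3 (CAR) was at 284 and 195 CPM against 254, 611 and 580 CPM, with overlap (−1.01, standard error 0.43, adjusted p = 0.206, edgeR). Rxra, the partner of both, had a log2 fold change of −0.55 (adjusted p = 0.197, edgeR, and 0.0208 in DESeq2) and the glucocorticoid receptor gene Nr3c1 one of −0.63 (0.165).
The regulators called lower were Cebpa, Stat5b and Cux2. Cebpa, a basal hepatocyte factor, was at 109 and 86.1 CPM against 287, 254 and 205 CPM (log2 fold change −1.35, standard error 0.26, adjusted p = 0.0330, edgeR). Stat5b, which carries the growth hormone signal, was at 29.5 and 28.7 CPM against 97.2, 85.0 and 80.4 CPM (−1.59, standard error 0.21, adjusted p = 0.00981, edgeR). Cux2, a factor of female liver, had 2 and 8 counts with APAP and 215, 79 and 89 counts with saline (−5.02, standard error 0.91, adjusted p = 0.0263, edgeR). With fewer than 10 counts in each APAP library, it could only be called lower. As a female-biased gene it also cannot be read for APAP apart from sex. Hnf4a was at 415 and 706 CPM against 871, 960 and 1424 CPM, without overlap (−0.95, standard error 0.37, adjusted p = 0.172, edgeR, and 0.0386 in DESeq2). The other 7 regulators, none of them called, were Onecut1 (−1.02), Ppargc1a (−1.07), Nr0b2 (−0.50), Foxa2 (−0.48), Foxa3 (0.27), Bcl6 (0.31) and Cebpb (0.66) in log2 fold change.

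Among 4 electron donors of P450 enzymes, Cyb5b alone was called in edgeR. It had 131 and 193 CPM with APAP and 661, 638 and 347 CPM with saline (log2 fold change −1.76, standard error 0.38, adjusted p = 0.0424, edgeR). Por, the oxidoreductase that all microsomal P450 enzymes need, was at 361 and 350 CPM against 298, 149 and 462 CPM, so that its groups overlapped (0.23, standard error 0.45, adjusted p = 0.796, edgeR). Cyb5a and Cyb5r3 had log2 fold changes of −0.59 and −0.45 and were not called in edgeR, while DESeq2 gave Cyb5a an adjusted p of 0.0458.

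**Figure D5:**
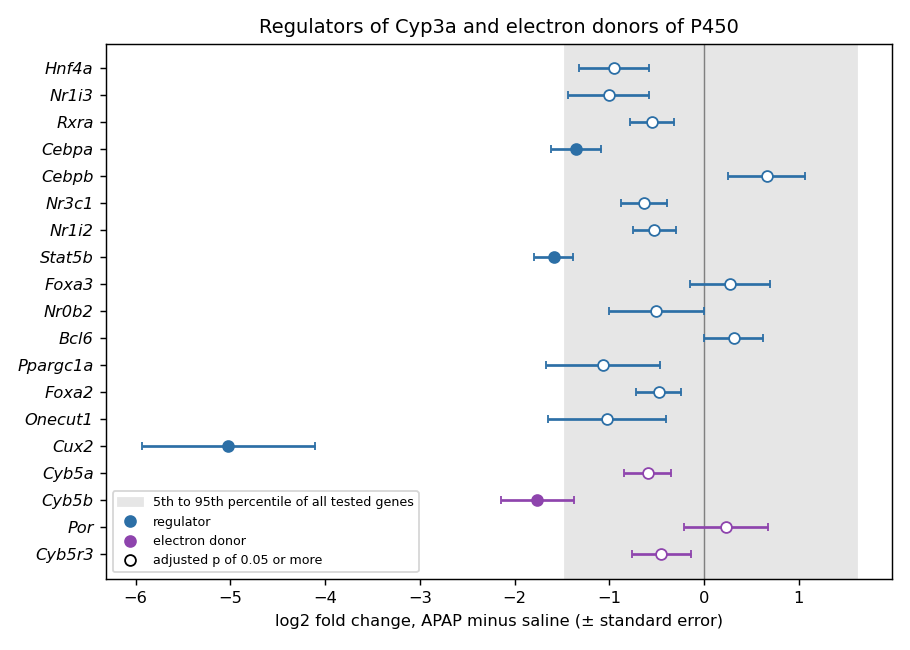
Fitted log2 fold change (APAP minus saline) with standard error for 15 regulators of Cyp3a genes (blue) and 4 electron donors (purple). Filled points have an adjusted p under 0.05 in edgeR's quasi-likelihood test (Cebpa, Stat5b, Cux2 and Cyb5b), and the grey band is the 5th to 95th percentile of all tested genes. Cux2 lies furthest out at −5.02, while Nr1i2 (−0.52) and Por (0.23) lie inside the band.

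Other P450 genes and PXR or CAR targets were read beside the Cyp3a genes. Of 20 other targets, 7 were called lower and 1 higher (median log2 fold change −1.30). Of the 20, 1 had fewer than 10 counts in each APAP library and entered the test through saline alone. Cyp2c29 and Cyp2c37 were among the lower ones (−3.68 and −5.76). The one called higher, Gsta1, a glutathione transferase gene named after its value was seen, was at 70.3 and 34.3 CPM with APAP and between 1.17 and 1.66 CPM with saline (5.24, standard error 0.38, adjusted p = 0.00182, edgeR). In the Cyp2c subfamily 9 of 13 tested genes were called lower (median −3.68), and 2 of the 13 had fewer than 10 counts in each APAP library and entered the test through saline alone. Cyp2c69, with 2 and 35 counts with APAP, also needed saline to pass the filter. Of the Cyp2a and Cyp2b genes 6 of 7 were called lower (median −2.62), among them Cyp2a5 (−1.29), Cyp2b9 (−2.62) and Cyp2a4 (−2.91). Cyp2b13, also called and named after its values were seen, had 65 and 4 counts with APAP and needed saline to pass the filter. Cyp2a12, which is the most abundant of these genes, had a log2 fold change of −0.22 and was not called (adjusted p = 0.643, edgeR).

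Markers of liver cells moved with the treatment too. Of 12 genes of pericentral hepatocytes, 10 were called lower, and the summed level of the 12 was between 1268 and 2244 CPM with APAP and between 8812 and 14460.1 CPM with saline. Of the 12, 1 had fewer than 10 counts in each APAP library and entered the test through saline alone. Rhbg (12 and 4 counts with APAP), named after its values were seen, also needed saline to pass the filter. Cyp2e1 (−2.34) and Glul (−3.74), which mark these cells, fell as far as Cyp3a25 or further. Of 9 periportal genes 3 were called lower (Ass1, Cyp2f2 and Gls2), with sums of 7508 to 8191 CPM against 13318 to 14362 CPM. None of 10 general hepatocyte markers, among them Alb (−0.70), was called in edgeR's quasi-likelihood test (3 were lower at an unadjusted p under 0.05 and after adjustment by the other 3 tests), and their sum of 101347 to 155414 CPM with APAP overlapped that of 145035 to 205928 CPM with saline. Of 8 tested neutrophil markers 7 were called higher, from 4.30 to 8.82 CPM in sum with saline, where Camp and Ly6g had no counts, to 77.9 to 117 CPM with APAP. Several of the 8, Camp among them, had fewer than 10 counts in each saline library. These entered the test through APAP alone and could only be called higher. One of 4 cholangiocyte markers, Sox9, was called higher (3 by the likelihood ratio test, the exact test and DESeq2, and all 4 at an unadjusted p under 0.05). One of 5 stellate cell markers, Col1a1, was called higher by each of these tests, and none of 6 Kupffer cell or 5 endothelial markers (1 of each at an unadjusted p under 0.05, higher, of which Marco of the Kupffer cells was called by the other 3 tests). The summed cholangiocyte level was 42.2 to 70.6 CPM against 6.99 to 10.02 CPM, while sums overlapped for stellate cells (268 to 334 against 310.0 to 370.0 CPM), Kupffer cells (205 to 385 against 205 to 286 CPM) and endothelial cells (94.7 to 151 against 100.5 to 151 CPM). The part of these shifts in the Cyp3a values was not tested.

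The genes around the subfamily were read in the same fit. Within 250 kb of a member 47 other genes were listed, none closer than 12.1 kb, and 29 were tested. Outside the pseudogene Cyp3a63-ps, none of the 28 tested neighbours was called in either direction by the quasi-likelihood test (4 lower and 2 higher at an unadjusted p under 0.05), and their median log2 fold change was 0.00. The likelihood ratio and exact tests each called 1 of them higher and none lower, and DESeq2 called 2 lower and 1 higher. Over all 13734 tested genes DESeq2 called 1155 lower and 938 higher. At an unadjusted p under 0.05 with a fold change of at least 1.5, 11.2% of these were lower and 12.3% higher in the quasi-likelihood test. Azgp1, a liver-secreted protein gene 59.9 kb from Cyp3a13, had 767 and 1145 CPM after APAP against 1827, 1687 and 1813 CPM after saline (−0.89, adjusted p = 0.132, edgeR). Cyp3a63-ps, 39.4 kb from the nearest member, had 0 counts in both APAP libraries and 6, 20 and 24 counts with saline (adjusted p = 0.0395, edgeR), and entered the test through saline alone.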

How the data were processed

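The authors isolated liver RNA with TRIzol, prepared libraries with the SMARTER mRNA-Seq kit and sequenced them on an Illumina NovaSeq instrument. Read counts per gene were obtained by the authors with HISAT2 and deposited without normalization. The processing notes of the submitters name GRCm38 (mm10), and the annotation, strand setting and program versions are not given in the sources used here. FPKM values, which the authors computed with StringTie and deposited in 5 further columns, were not used. APAP replicate 2 was not analysed here. Columns of saline livers carry the names WT1 to WT3 and were not matched to single saline samples. No row lacked a gene identifier.

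The test was run with edgeR 4.0.16 under R 4.3.3. After filterByExpr with a minimum count of 10 and a minimum total of 15, the counts were scaled by TMM and compared by the quasi-likelihood test, APAP (n = 2) against saline (n = 3), with Benjamini-Hochberg adjustment over all 13734 tested genes. The study names edgeR with a fold change of 1.5 and P of 0.05 but not the test, so both thresholds were counted. Counts of a list at an unadjusted p under 0.05 carry no fold threshold. With a fold change of at least 1.5 added, 11.2% of all tested genes were lower and 12.3% higher, the least that the p alone can give. Over all 13734 genes 869 were called lower and 966 higher by the likelihood ratio test, 827 and 949 by the exact test, and 1155 and 938 by DESeq2. The design had been written with this unequal number of libraries in mind. Alternatives were the likelihood ratio and exact tests, DESeq2 1.42.0, other scalings, other filters and each library left out. Libraries of a group differed by more than the noise of sampling (a chi-square between 45.0 and 95.8 per degree of freedom). Sums and shares were compared by two-sided exact permutation tests (scipy 1.17.1). The reads have no molecular identifiers, so intervals and limits of 3 counts describe counting error alone. Shared words, transcript lengths and coding sequences were taken from GENCODE M21, in which 34267 of 34745 gene identifiers and the same span of all 9 members were found, and promoters from RefSeq (9 of 9 members matched). Identity was computed from pairwise alignments (Biopython 1.88).

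The members, the gene lists and the words searched were chosen with earlier results of these data known. Genes named besides the members were all regulators, electron donors and sex-linked genes, up to 4 genes with the highest mean CPM of each other list, genes within 250 kb of a member and the 3 closest profiles among genes whose mean reached 10 CPM. Where a list had few calls, the called genes were named after their values were seen. One further gene, which had been on the list of regulators, is not reported here.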

Additional observations from a re-analysis of the deposited data

How the results depend on the processing

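All 8 tested members stayed below 0 in every alternative that tested them, and none reversed. Of the fold changes of members under alternatives, 87 kept their side of the threshold, 13 lost it and 1 (Cyp3a13, with DESeq2) gained it. The number of members called lower was 7 under the other tests except DESeq2 (8), 7 under the other scalings, 4 with at least 10 counts required in every library, where 5 members were tested, and between 3 and 7 with 1 library left out (3 without APAP replicate 3 or WT2, 4 without WT1, 5 without APAP replicate 1 and 7 without WT3). Members lower by the thresholds of the study numbered 8, but 7 by the likelihood ratio and exact tests, with library size only and without APAP replicate 1, APAP replicate 3, WT1 or WT3, and 5 with at least 10 counts in every library. The folds of sums with 1 library left out were computed after seeing the data. Over all genes, 993 were called, against 1835 by the likelihood ratio test, 1776 by the exact test and 2093 by DESeq2, and between 165 (without WT2) and 922 (without WT3) with 1 library left out. Leaving a library out leaves fewer samples. Where 1 APAP library was left, it was assumed to vary like the saline libraries. The cause of the other shifts was not tested. Scaling to library size only moved the median of all genes to 0.42 and the share of lower genes among calls from 48.8% to 22.2%. No paired analysis was possible because the numbers of the saline columns WT1 to WT3 could not be matched to the numbered samples. The sources used here also describe no pairing of saline with APAP livers, so matched names alone would not have given pairs. Depth limits Cyp3a57, Cyp3a16, Cyp3a41a and Cyp3a41b, whose counts with APAP were at or near 0.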

Other observations

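The APAP libraries ranked the members in different ways. APAP replicate 1 was the higher of the pair for Cyp3a11 (614 against 242 CPM), Cyp3a25 (232 against 114 CPM) and Cyp3a59 (17.2 against 6.80 CPM), by 2.54-fold, 2.03-fold and 2.53-fold. APAP replicate 3 was the higher for Cyp3a44 (4.39 against 1.41 CPM, 3.11-fold) and Cyp3a13 (232 against 205 CPM, 1.13-fold), and the only Cyp3a41a counts with APAP were in this library. Alb was also higher in APAP replicate 3 (89798 CPM) than in APAP replicate 1 (51545 CPM), as was Cyp2e1 (1593 against 783 CPM), while Cyp2b9 followed Cyp3a11 (119 CPM in APAP replicate 1 and 42.2 CPM in APAP replicate 3). With 2 APAP libraries these differences have no test.

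Among saline libraries, WT1 had the highest Cyp3a11 level (3631 CPM) and the lowest levels of Cyp3a41a (148 CPM), Cyp3a41b (3.76 CPM) and Cyp3a16 (30.6 CPM), and WT3 the lowest Cyp3a11 level (1770 CPM) and the highest of these 3. Cyp3a44, the remaining female-predominant member, was instead highest in WT1 (191 CPM, against 131 CPM in WT2 and 187 CPM in WT3). Xist was lowest in WT1 (289.6 CPM), against 914 CPM in WT2 and 882 CPM in WT3. Female-biased genes outside Cyp3a went either way. In WT1, WT2 and WT3, Cyp2c69 was at 799, 672 and 407 CPM and Sult2a1 at 274, 444 and 656 CPM.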
